A study of Mus musculus with 4 samples.

Results

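Osteopontin (Spp1), arginase 1 (Arg1), TREM2 (Trem2), GPNMB (Gpnmb), macrophage elastase (Mmp12), VEGF-A (Vegfa), HILPDA (Hilpda), the activin subunit inhibin beta A (Inhba) and inducible nitric oxide synthase (Nos2) are genes of macrophages that repair tissue, handle lipid or work at low oxygen. These 9 genes, of 28692 in the files, were taken by symbol, and their unique molecular identifiers (UMIs) were read by library and by marker-gated myeloid type. The set was chosen by measured values: earlier results of the same libraries showed these genes together in tumour myeloid cells and at unequal levels between the arms. The levels and the differences between arms below therefore describe the 9 genes and support nothing on their own.

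The libraries came from B16-F10 melanoma, a transplantable tumour line, grown in C57BL/6 mice that were given Pmel-1 CD8 T cells on day 3 and sampled on day 14. Pmel-1 T cells recognise gp100, a melanocyte protein, through a transgenic receptor. In the IRF4 arm the given cells had been transduced with IRF4-GFP, and in the control arm with a GFP control. IRF4, a transcription factor, accumulates in T cells when their receptor is engaged. Only the given T cells were transduced, so the myeloid cells of both arms are endogenous cells of the tumour. The myeloid cells come from the endogenous CD45+ library of the IRF4 arm and the endogenous CD45+ library of the control arm. The transferred Pmel-1 cells of the IRF4 arm and of the control arm formed the other 2 libraries and are used here only for levels in T cells. Every group was 1 library, and the labels do not say how many mice were pooled in it, so no difference was tested and all intervals (95%) cover counting error alone.

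Tumours recruit circulating Ly6c2-expressing monocytes that mature into macrophages. Macrophages far from vessels stabilise hypoxia-inducible factors (HIF), which drive genes of glycolysis, lipid storage and vessel growth such as Hilpda and Vegfa. Arginase 1 and nitric oxide synthase compete for arginine, osteopontin and elastase are secreted into the matrix, and TREM2 and GPNMB mark macrophages that take up lipid and cell debris.

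The promoters of Hilpda, Vegfa, Inhba and Spp1 are shown because the first pair are textbook HIF targets, while Inhba and Spp1 were detected in the same cells. Each is 1 RefSeq window (GRCm38.p6) of 250 bases before to 50 after a transcript start, written 5′ to 3′ on the strand of the gene, in lower case. Capitals mark the HIF core letters ACGTG and GCGTG on either strand (CACGT and CACGC on the other strand), and no matches overlapped.
Hilpda: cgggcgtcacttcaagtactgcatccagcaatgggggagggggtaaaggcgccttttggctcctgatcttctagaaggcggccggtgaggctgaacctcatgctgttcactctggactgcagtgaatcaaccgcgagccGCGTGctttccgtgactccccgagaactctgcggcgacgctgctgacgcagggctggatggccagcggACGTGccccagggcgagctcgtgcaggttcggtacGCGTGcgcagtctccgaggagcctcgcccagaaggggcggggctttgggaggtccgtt
Vegfa: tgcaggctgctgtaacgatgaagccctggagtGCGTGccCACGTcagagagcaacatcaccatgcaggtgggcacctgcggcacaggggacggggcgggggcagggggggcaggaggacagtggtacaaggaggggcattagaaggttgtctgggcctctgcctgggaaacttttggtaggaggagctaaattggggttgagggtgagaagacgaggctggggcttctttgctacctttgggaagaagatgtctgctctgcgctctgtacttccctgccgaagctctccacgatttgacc
Inhba: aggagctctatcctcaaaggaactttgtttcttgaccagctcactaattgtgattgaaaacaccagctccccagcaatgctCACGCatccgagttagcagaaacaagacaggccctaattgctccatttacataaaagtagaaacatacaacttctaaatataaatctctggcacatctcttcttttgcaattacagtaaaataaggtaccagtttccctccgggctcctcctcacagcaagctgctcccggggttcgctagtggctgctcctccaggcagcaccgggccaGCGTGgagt
Spp1: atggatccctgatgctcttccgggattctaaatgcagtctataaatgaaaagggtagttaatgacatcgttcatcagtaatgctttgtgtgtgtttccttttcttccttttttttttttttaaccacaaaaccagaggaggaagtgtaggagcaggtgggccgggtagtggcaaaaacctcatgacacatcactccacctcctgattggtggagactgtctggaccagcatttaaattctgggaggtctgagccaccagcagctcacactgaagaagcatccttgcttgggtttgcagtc
The Hilpda window (chr6:29272376-29272675, plus strand) held 1 ACGTG and 2 GCGTG, and the overlapping window of its other start held 0 ACGTG and 1 GCGTG. The Vegfa window (chr17:46025114-46025413, minus strand) belongs to a start inside the gene and held 1 of each. The window of the other Vegfa start, at the 5′ end of the gene, held none. The Inhba window (chr13:16011601-16011900, plus strand) held 2 GCGTG. The Spp1 window (chr5:104434861-104435160, plus strand) and the window of its other start held neither. For Hilpda and Vegfa the window printed is the one with more matches, while the shares below count single windows. Either core occurred in 43.8% of 32851 mouse promoters of this length, ACGTG in 19.6% and GCGTG in 32.4%. A match is therefore common, and its absence says only that these letters are not in this window. The table matched 7 of the 9 genes, and Arg1 and Nos2 are named only.

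After filtering, the IRF4 library held 6371 endogenous cells at a median of 8437 UMIs and the control library 5676 at 10521. The 2 libraries had 13 kept barcodes in common. Of these cells, 1618 in the IRF4 library, against 2564 in the control library, were gated as myeloid, rarer types included. C1q macrophages, with at least 4 of 6 markers that include C1qa, C1qb, C1qc and Adgre1, numbered 199 in the IRF4 library, against 570 in the control library. Ly6c2 monocytes, gated on Ly6c2, Ccr2, Vcan, Chil3, Plac8 and Hp, numbered 647 and 630, in that order of arms. Myeloid cells that passed neither gate nor that of any rarer type, called other myeloid here, numbered 214 and 409, and were led by Cxcl3, Cxcl2, Inhba, Hilpda and Gpnmb. Nonclassical monocytes (167 and 279) and cDC2, a type of conventional dendritic cell (120 and 203), also held at least 100 cells in each arm. The gates cut a continuum: 102 and 207 of the C1q macrophages also carried 4 or more Ly6c2 monocyte markers, and 65 and 149 sat at the minimum of 4.

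Levels are given as CPM, a gene's UMIs in a type per 1000000 UMIs of that type. In the 3 types in which the 9 genes were high (C1q macrophages, Ly6c2 monocytes and other myeloid cells) all 9 were measured, meaning at least 10 CPM in either arm. Shares of cells with a UMI are given after each cell was thinned to 2000 UMIs. Free RNA gives every cell some UMIs of an abundant gene, and B cells are taken here as the type that should lack them. For Spp1 the thinned share in B cells was 2.59% in the IRF4 library, against 9.23% in the control library, at levels of 8.14 and 52.9 CPM.

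**Figure D1:**
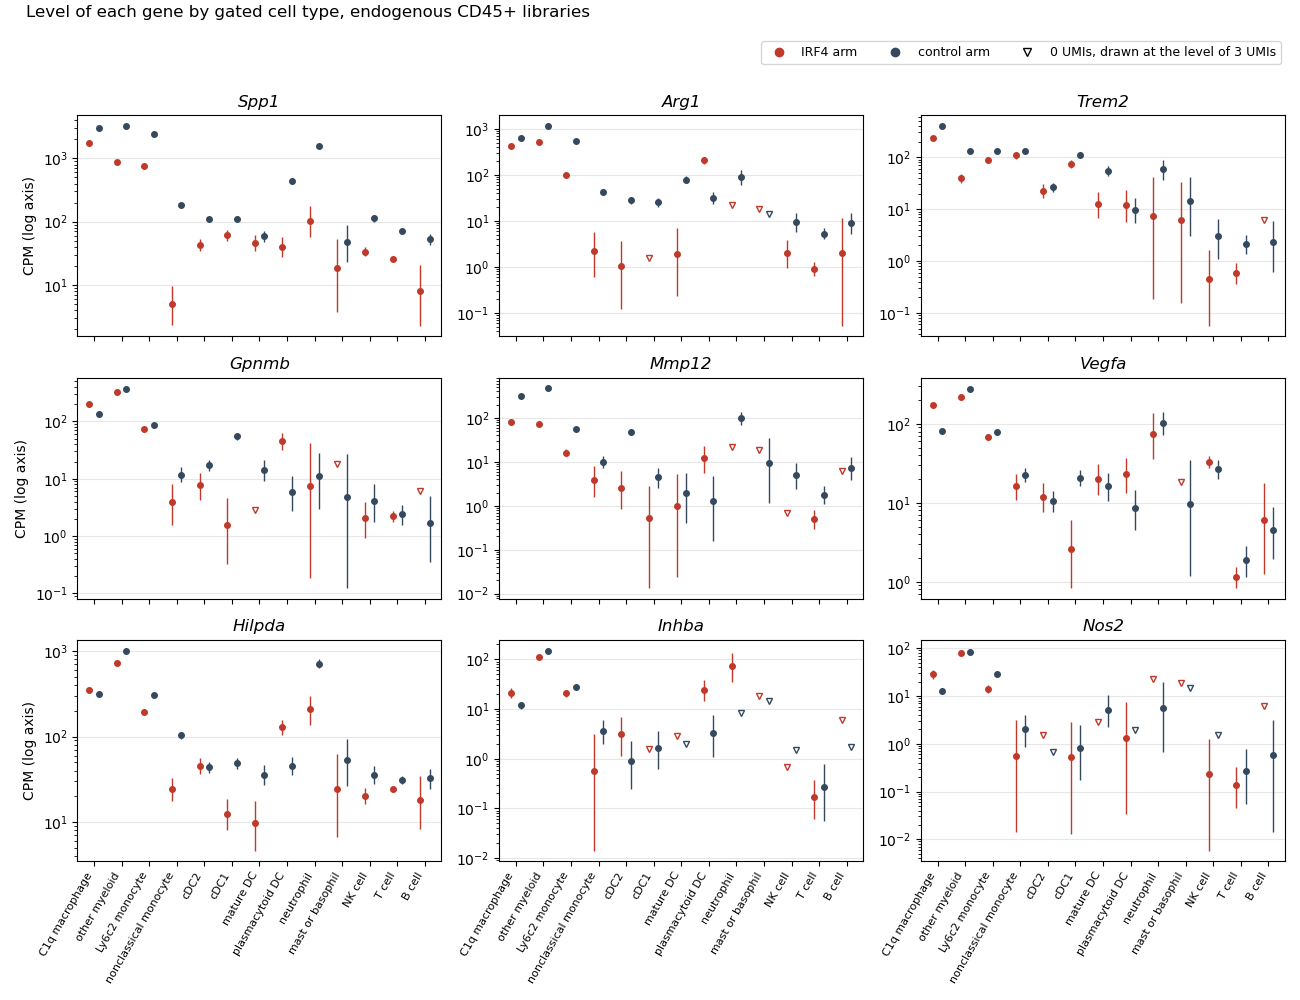
CPM (log axis) of each of the 9 genes in 13 gated cell types of the endogenous libraries, IRF4 arm in red and control arm in dark blue, with 95% counting intervals; open triangles are types with 0 UMIs, drawn at the level of 3 UMIs. Spp1 stood at 1783, 886 and 771 CPM in C1q macrophages, other myeloid cells and Ly6c2 monocytes of the IRF4 arm and at 3001, 3277 and 2440 CPM in those of the control arm, and Trem2 alone was about as high in nonclassical as in Ly6c2 monocytes.

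Spp1, which encodes the secreted phosphoprotein osteopontin, a ligand of integrins and CD44, was the most abundant of the 9 genes in C1q macrophages, Ly6c2 monocytes and other myeloid cells of both arms. It lies at chr5:104435118-104441050 on the plus strand (mm10, GENCODE vM21) and overlaps the same-strand gene model Gm42793. C1q macrophages held 1783 CPM of Spp1 in the IRF4 arm and 3001 CPM in the control arm, a ratio of 0.594 (0.578 to 0.611). Ly6c2 monocytes held 771 CPM in the IRF4 arm against 2440 CPM in the control arm, a ratio of 0.316 (0.307 to 0.325). Other myeloid cells held 886 CPM in the IRF4 arm against 3277 CPM in the control arm, a ratio of 0.270 (0.259 to 0.282). The level was thus lower in the IRF4 arm in each of these types. Nonclassical monocytes, the patrolling type, had 9 UMIs (5.01 CPM) in the IRF4 arm and 728 UMIs (184 CPM) in the control arm, where 27.2% of them lay in 1 cell. Neutrophils of the control arm showed 1579 CPM, but 62.9% of those UMIs came from 1 cell.

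The RNA of Spp1 sat in few cells. The 10% of C1q macrophages richest in Spp1 held 76.5% of its UMIs in the IRF4 arm, against 68.1% in the control arm, and among Ly6c2 monocytes 98.6% and 84.2%, in that order of arms. The thinned share of C1q macrophages with an Spp1 UMI was 37.8% (30.9 to 44.9) in the IRF4 arm, against 51.3% (47.1 to 55.5) in the control arm. Among Ly6c2 monocytes it was 10.8% (8.53 to 13.5) in the IRF4 arm, against 30.4% (26.8 to 34.1) in the control arm. Both arms lay above the B cell share of their own library in these types, while nonclassical monocytes, at 1.2% in the IRF4 arm, against 10.04% in the control arm, did not stand clear of it. Transferred T cells held 8.29 CPM of Spp1 in the IRF4 arm and 17.1 CPM in the control arm, and T cells of the endogenous libraries 25.5 CPM and 71.0 CPM. Which part of the T cell level was free RNA was not tested. Without cells that carried any lymphoid marker UMI the log2 ratio in C1q macrophages was -0.32, against -0.75 with them. With cells typed by cluster instead of by gate, it was -0.23 in the Ly6c2 type, against -1.66 by gate, and -0.61 in the other myeloid type, against -1.89. Typing by cluster gave a whole cluster its most common gated type, so the cells compared were not those of the gate.

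Mmp12, the gene of macrophage elastase, which cleaves elastin, showed the lowest ratio of the 9 genes in C1q macrophages and in other myeloid cells. It lies at chr9:7344381-7369499 on the plus strand and overlaps Mmp1b on the minus strand. C1q macrophages held 82.4 CPM in the IRF4 arm and 322 CPM in the control arm, a ratio of 0.256 (0.225 to 0.290). Other myeloid cells held 72.4 CPM in the IRF4 arm and 471 CPM in the control arm, a ratio of 0.154 (0.132 to 0.178). Few cells carried it even there: the thinned share was 8.16% in the IRF4 arm, against 17% in the control arm among C1q macrophages. In Ly6c2 monocytes it stood at 16.1 CPM in the IRF4 arm, with 61.8% of the UMIs in 1 cell, and at 55.3 CPM in the control arm. Without the richest cell of each library the log2 ratio in Ly6c2 monocytes was -2.80, against -1.72 with it, and with thinned cells the ratio in other myeloid cells was -1.77, against -2.69 unthinned. In cDC2 it stood at 2.59 CPM (5 UMIs) in the IRF4 arm and 47.9 CPM (215 UMIs) in the control arm.

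Arg1 encodes cytosolic arginase, which splits arginine into ornithine and urea. The gene lies at chr10:24915221-24927484 on the minus strand. Its highest type was the other myeloid cells, at 514 CPM in the IRF4 arm and 1161 CPM in the control arm, a ratio of 0.443 (0.417 to 0.470). Ly6c2 monocytes held 99.7 CPM in the IRF4 arm and 534 CPM in the control arm, a ratio of 0.187 (0.173 to 0.202), the lowest of the 9 genes in that type. C1q macrophages held 435 CPM in the IRF4 arm and 640 CPM in the control arm, a ratio of 0.680 (0.642 to 0.720), which did not pass the 1.5-fold mark. Its log2 value of -0.56 did pass with thinned cells (-0.91), as a mean over single cells (-0.76), in cells of a middle range of depth (-0.75), without the richest cell (-0.67), under a stricter gate (-0.61) and with lymphoid and myeloid cells kept (-0.63). The thinned share of other myeloid cells with an Arg1 UMI was 16.2% (11.5 to 21.9) in the IRF4 arm, against 43.3% (38.4 to 48.3) in the control arm. B cells stood at 0.862% in the IRF4 arm, against 1.72% in the control arm. With cells typed by cluster the log2 ratio in the Ly6c2 type was -1.10, against -2.41 by gate. Plasmacytoid dendritic cells of the IRF4 arm showed 206 CPM, of which 85.6% came from 1 cell.

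Nos2, which makes nitric oxide from the same amino acid, was rarer than Arg1. It lies at chr11:78920787-78960254 on the plus strand. Other myeloid cells held 81.2 CPM in the IRF4 arm and 81.5 CPM in the control arm, a ratio of 0.997 (0.842 to 1.18). C1q macrophages held 28.8 CPM (91 UMIs in 27 cells) in the IRF4 arm and 12.7 CPM (164 UMIs in 35 cells) in the control arm, a ratio of 2.27 (1.74 to 2.95). Ly6c2 monocytes held 14.3 CPM in the IRF4 arm and 28.5 CPM in the control arm, a ratio of 0.50 (0.396 to 0.629). The last 2 ratios point in opposite directions on few cells. With cells typed by cluster instead of by gate, the log2 ratio was 0.22 in the C1q type and 1.04 in the Ly6c2 type, against 1.12 and -0.95 by gate, but Nos2 was under 10 CPM in both arms in the clusters that made up these types, and so was not measured there. Under a stricter gate these values were 0.54 and -1.91. No Nos2 UMI was found in cDC2 of either arm (0 of 120 cells in the IRF4 arm, which allows up to 2.50% of cells with a UMI, and 0 of 203 in the control arm, up to 1.48%, a limit on detection and not on cells that express the gene).

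Trem2, a receptor for lipids and lipoproteins that signals through TYROBP, had another pattern across types. It lies at chr17:48346401-48354147 on the plus strand. C1q macrophages were its highest type, with 235 CPM in the IRF4 arm and 399.5 CPM in the control arm, a ratio of 0.589 (0.545 to 0.637). Nonclassical monocytes, with 108 CPM in the IRF4 arm and 130 CPM in the control arm, were close to Ly6c2 monocytes, with 88.7 and 131 CPM, and the counting intervals of these neighbours overlapped in both arms. In other myeloid cells, where most of the 9 genes were high, Trem2 stood at 39.5 CPM in the IRF4 arm and 129 CPM in the control arm. Trem2 was the most evenly spread of the 9 genes in C1q macrophages: the richest 10% of them held 46.7% of its UMIs in the IRF4 arm, against 37.0% in the control arm. With cells typed by cluster, the log2 ratio in other myeloid cells was -0.50, against -1.68 by gate. B cells had 0 Trem2 UMIs in the IRF4 arm, against 4 in the control arm. The log2 ratio in C1q macrophages, -0.76 by gate, was -0.21 with cells typed by cluster, -0.44 without cells carrying a lymphoid marker UMI and -0.58 under a stricter gate.

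Gpnmb, a transmembrane glycoprotein of macrophages that digest debris and of melanocytes, lies at chr6:49036546-49070929 on the plus strand. It was highest in other myeloid cells, at 327 CPM in the IRF4 arm and 373 CPM in the control arm, and stood at 202 CPM in the IRF4 arm and 132 CPM in the control arm in C1q macrophages, a ratio of 1.53 (1.39 to 1.67). In Ly6c2 monocytes it held 73.4 CPM in the IRF4 arm and 86.1 CPM in the control arm. The C1q ratio sat just past 1.5 and ended below it under 8 alternative settings, the lowest log2 value being 0.21. B16-F10 cells use the gene too: barcodes with 3 or more melanoma markers and no myeloid gate (3 cells in the IRF4 arm, against 16 in the control arm) held 2795 and 1068 CPM of it. In C1q macrophages 6 pigment genes (Mlana, Dct, Tyrp1, Tyr, Pmel and Slc45a2) summed to 129 CPM in the IRF4 arm and 27.9 CPM in the control arm, each above 0. Without the 13 and 35 C1q macrophages that carried 3 or more melanoma markers, Gpnmb stood at 199 CPM in the IRF4 arm and 133 CPM in the control arm. In cDC2 of the control arm 97.4% of the 77 Gpnmb UMIs lay in 1 cell.

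Hilpda encodes a small protein that sits on lipid droplets and restrains the lipase ATGL. It lies at chr6:29272488-29275446 on the plus strand. Other myeloid cells held 717 CPM in the IRF4 arm and 1010 CPM in the control arm, a ratio of 0.710 (0.673 to 0.748). C1q macrophages held 353 CPM in the IRF4 arm and 312 CPM in the control arm, a ratio of 1.13 (1.06 to 1.21), and Ly6c2 monocytes 195 and 308 CPM, a ratio of 0.631 (0.592 to 0.672), whose log2 value of -0.66 was -0.40 under a stricter gate. The thinned share of other myeloid cells with a Hilpda UMI was 42.9% (36.1 to 49.8) in the IRF4 arm, against 56.5% (51.5 to 61.4) in the control arm. Neutrophils had 208 CPM (28 UMIs) in the IRF4 arm and 713 CPM (258 UMIs) in the control arm. Transferred T cells held 31.5 CPM of Hilpda in the IRF4 arm and 31.9 CPM in the control arm, which was close to the B cells of the endogenous libraries at 18.3 CPM (8.38 to 34.8) in the IRF4 arm and 32.4 CPM (24.6 to 42.0) in the control arm.

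Vegfa, the main growth factor for blood vessels, lies at chr17:46016993-46032369 on the minus strand. C1q macrophages held 172 CPM in the IRF4 arm and 80.1 CPM in the control arm, a ratio of 2.15 (1.93 to 2.38). Other myeloid cells held 220 CPM in the IRF4 arm and 274 CPM in the control arm, and Ly6c2 monocytes 67.7 and 77.8 CPM. The thinned share of C1q macrophages with a Vegfa UMI was 25.5% (19.6 to 32.2) in the IRF4 arm, against 13.8% (11.1 to 16.9) in the control arm. Without the cells carrying 3 or more melanoma markers the levels in C1q macrophages were 176 and 78.2 CPM. NK cells held 33.1 CPM of Vegfa in the IRF4 arm and 26.7 CPM in the control arm, against 1.15 and 1.87 CPM in T cells of the same libraries.

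Inhba, the subunit whose dimer is activin A, lies at chr13:16011851-16031621 on the plus strand and overlaps the antisense gene Gm48444 and the pseudogene B230303A05Rik. Other myeloid cells held 113 CPM in the IRF4 arm and 146 CPM in the control arm, 5.32 and 12.4 times the level in C1q macrophages of the same arm. C1q macrophages held 21.2 CPM (67 UMIs in 17 cells) in the IRF4 arm and 11.8 CPM (152 UMIs in 34 cells) in the control arm, a ratio of 1.80 (1.33 to 2.42). Ly6c2 monocytes held 21.0 and 27.3 CPM, in that order of arms. The C1q log2 ratio of 0.80 was 0.25 when each cell was thinned to 2000 UMIs and 0.33 as a mean over single cells. Neither B cells nor NK cells of either arm had an Inhba UMI.

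Set side by side between arms, the 9 genes divided by type. A gene was counted as higher or lower past a ratio of 1.5 on the scale of log2(CPM + 1). In C1q macrophages 4 of 9 were higher in the IRF4 arm (Gpnmb, Vegfa, Inhba and Nos2), where 5.79% of all 7413 measured genes were, and 3 lower (Spp1, Trem2 and Mmp12), where 7.08% were. In Ly6c2 monocytes 0 of 9 were higher (4.59% of all measured genes) and 5 lower (5.38%): Spp1, Arg1, Mmp12, Hilpda and Nos2. In other myeloid cells 0 of 9 were higher (11.7%) and 4 lower (6.99%): Spp1, Arg1, Trem2 and Mmp12. In nonclassical monocytes 7 of the 9 were measured, with 0 higher (3.32%) and 5 lower (5.32%): Spp1, Arg1, Gpnmb, Mmp12 and Hilpda, of which Gpnmb and Mmp12 changed sign under other settings. With cells typed by cluster, Arg1 (1 UMI in the IRF4 arm and 2 UMIs in the control arm) and Gpnmb (4 and 5 UMIs) were under 10 CPM in this type and so were not measured. In cDC2, also with 7 measured, 0 were higher (6.00%) and 4 lower (9.21%): Spp1, Arg1, Mmp12 and Gpnmb, the last changing sign without its richest cell. In these 2 types the sizes moved widely: the log2 ratio of Spp1 in nonclassical monocytes was -4.94 by gate and -2.24 by cluster, and that of Arg1 in cDC2 was -3.85 by gate and -1.82 with thinned cells. These shares are given as background only, since the genes were chosen with this contrast known. The median log2 ratio of all measured genes lay between -0.073 and 0.050 in the 5 types.

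**Figure D2:**
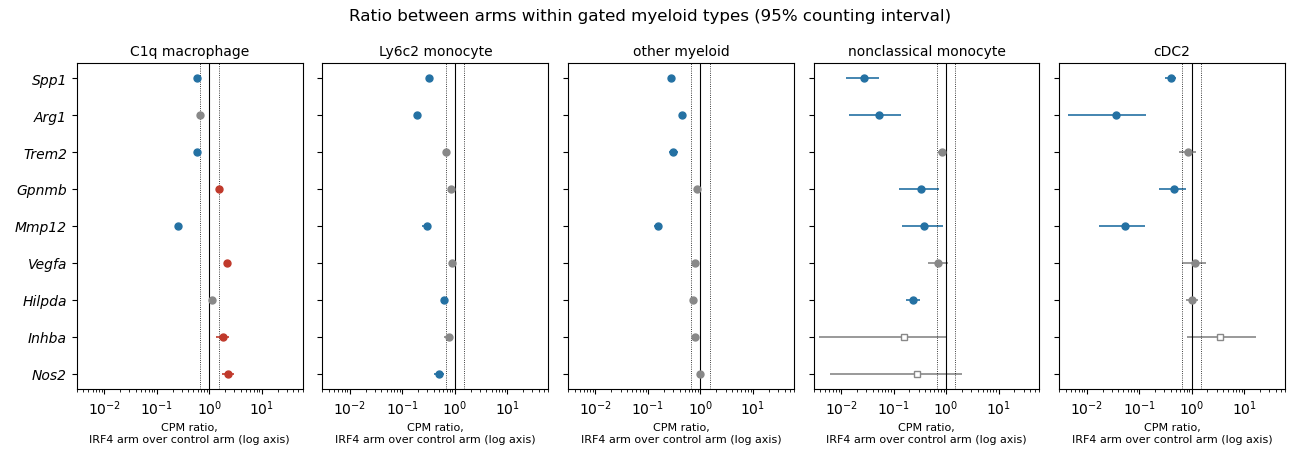
CPM ratio (log axis; IRF4 arm over control arm) for each gene in 5 gated types, with 95% counting intervals; red and blue points are past a ratio of 1.5 (dotted lines), grey points are not, open squares were not measured, and genes with 0 UMIs in an arm are left out. Spp1 and Mmp12 lie left of 1 in every panel, and Vegfa, Nos2, Inhba and Gpnmb lie right of 1.5 in C1q macrophages.

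The arms also differed in which cells made up a type. Cells were therefore clustered without the 9 genes, and cluster 2 (250 cells in the IRF4 arm, against 500 in the control arm), led by Hilpda, Rsad2, Gpnmb, Vegfa and Inhba, held more of each of them except Trem2 than clusters 4, 5, 7 and 11 did in either arm. It took 28.1% of C1q macrophages in the IRF4 arm, against 20.4% in the control arm, 12.5% and 16.7% of Ly6c2 monocytes, and 42.1% and 52.8% of other myeloid cells. Cluster 7, led by Ccl7, Pf4 and Ccl2, took 26.1% of C1q macrophages in the IRF4 arm, against 43.9% in the control arm, but 3.40% and 23.5% of Ly6c2 monocytes. Cluster 5, led by Hp, Mgst1 and Chil3, took 50.1% of Ly6c2 monocytes in the IRF4 arm, against 25.7% in the control arm. Cluster 4, led by Cxcl10 and Cxcl9, took 26.6% of C1q macrophages in the IRF4 arm, against 11.9% in the control arm.

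Within cluster 2 the genes past the mark between arms were Spp1, Arg1 and Mmp12. Spp1 stood there at 2918 CPM in the IRF4 arm and 4454 CPM in the control arm, a ratio of 0.655. Arg1 stood at 887 CPM in the IRF4 arm and 1736 CPM in the control arm, a ratio of 0.511. Mmp12 stood at 153 CPM in the IRF4 arm and 826 CPM in the control arm, a ratio of 0.185. No gene of the 9 was higher (7.16% of all measured genes) and these 3 were lower (3.46%). Ratios of the other 6 lay between 0.707 for Trem2 and 1.25 for Vegfa. Nos2, for example, held 153 CPM in the IRF4 arm and 145 CPM in the control arm.

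In cluster 7 (100 cells in the IRF4 arm, against 568 in the control arm) the same 3 genes were lower (4.56% of all measured genes), with ratios of 0.577 for Spp1, 0.648 for Arg1 and 0.319 for Mmp12. Gpnmb (2.31), Vegfa (1.88) and Inhba (3.72, 2.16 to 6.26) were higher there (4.13%), and Hilpda was at 1.05. Inhba rested on 24 UMIs (12.4 CPM) in the IRF4 arm and 43 UMIs (3.34 CPM) in the control arm. Nos2 was under 10 CPM in both arms. Cluster 11, led by Mgl2, Ifitm1 and Cd209a, had Spp1, Arg1, Trem2 and Mmp12 lower at ratios from 0.102 to 0.180 (5.27%). None was higher (4.42%). In cluster 4, with 7 genes measured, Mmp12 was lower, at 0.257 (2.98%), and 0 were higher (2.60%). Cluster 5 ran the other way for Spp1, at 121 CPM in the IRF4 arm and 48.6 CPM in the control arm. This ratio was 2.50 (2.05%), and 0 of the 3 measured genes of cluster 5 were lower (1.89%). Arg1 and Gpnmb stayed just under 10 CPM there and so were not counted, but both were far lower in the IRF4 arm. Arg1 had 3 UMIs (0.572 CPM) against 38 UMIs (9.99 CPM) in the control arm. Gpnmb had 4 UMIs (0.763 CPM) against 37 UMIs (9.73 CPM), in the same order. Inhba (2 UMIs against 1) and Nos2 (1 UMI against 0), also not measured, leaned the other way.

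**Figure D3:**
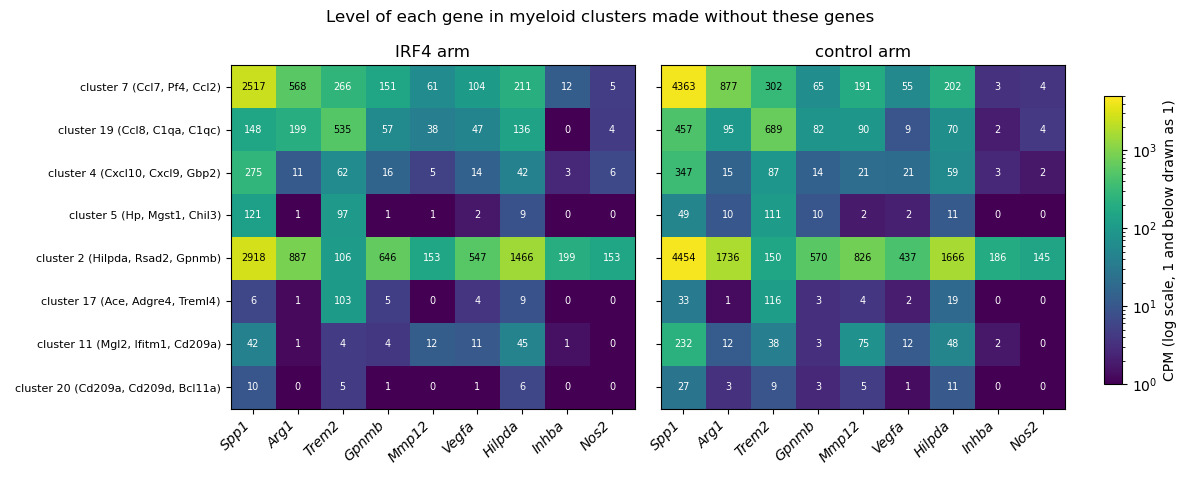
CPM (colour on a log scale, value printed in each cell) of the 9 genes in 8 myeloid clusters made without them, IRF4 arm on the left and control arm on the right; row labels give the cluster and its leading genes. Cluster 2 holds 1466 CPM of Hilpda in the IRF4 arm and 1666 CPM in the control arm, while cluster 19, led by C1q genes and Ccl8, holds most Trem2, at 535 and 689 CPM.

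Within an arm, the types ranked differently. In the IRF4 arm C1q macrophages exceeded Ly6c2 monocytes past 1.5-fold in 8 of 9 genes (13.4% of all measured genes), Inhba being level at 21.2 and 21.0 CPM. In the control arm the same comparison had 3 higher (Trem2, Gpnmb and Mmp12; 11.0%) and 2 lower (Inhba and Nos2; 11.4%). Of 30 measured genes on a list of hypoxia targets that holds none of the 9, 25 were higher in C1q macrophages than in Ly6c2 monocytes in the IRF4 arm, against 1 in the control arm. Other myeloid cells exceeded C1q macrophages in 4 of 9 genes in the IRF4 arm (13.6%), namely Gpnmb, Hilpda, Inhba and Nos2, and were lower in Spp1 and Trem2 (9.46%). In the control arm they exceeded them in these 4 and in Arg1 and Vegfa (9.02%), and were lower in Trem2 (11.3%). Other myeloid cells exceeded Ly6c2 monocytes in 7 of 9 genes in the IRF4 arm (14.5%) and in 7 of 9 in the control arm (9.63%), while Trem2 was lower in the IRF4 arm (12.9%) at a ratio of 0.445 and stood at 0.982 in the control arm. Ly6c2 monocytes exceeded nonclassical monocytes in 8 of 9 genes in the IRF4 arm (6.88%) and in the same number in the control arm (6.58%), the exception in both being Trem2.

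Cells with a UMI of Inhba or Nos2 nearly always also held Hilpda. This was read in 1025 IRF4-arm and 1565 control-arm cells of the C1q, Ly6c2 and other myeloid types, each thinned to 5000 UMIs. Hilpda was detected in 93.8% of Nos2-positive cells in the IRF4 arm, against 96.6% in the control arm, against 25.6% and 39.5% of Nos2-negative cells. Among Inhba-positive cells the Hilpda share was 94.8% in the IRF4 arm, against 96.8% in the control arm. Vegfa was found in 60.1% of Hilpda-positive cells in the IRF4 arm, against 60.2% in the control arm, against 2.92% and 5.35% of Hilpda-negative ones. Inhba was found in 26.6% of Nos2-positive cells in the IRF4 arm, against 40.3% in the control arm, and in 4.27% and 5.26% of Nos2-negative cells. No difference between the arms in these shares was tested.

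Arg1 was also more frequent in Nos2-positive than in Nos2-negative cells of both arms. It was detected in 32 of the 64 Nos2-positive cells in the IRF4 arm and in 96 of the 119 in the control arm, against 10.4% and 28.1% of Nos2-negative cells. Trem2 was less frequent in Inhba-positive than in Inhba-negative cells of the control arm, at 22.6% (15.6 to 31.0) against 47.5% (44.9 to 50.2). In the IRF4 arm the shares were 24.1% (13.9 to 37.2, 14 of 58 cells) and 30.2% (27.3 to 33.2), with overlapping intervals. Trem2 was more frequent in Arg1-positive cells, at 48.5% in the IRF4 arm and at 55.2% in the control arm, against 27.1% and 41.0% of Arg1-negative cells, and likewise with Mmp12 and Spp1. No member was detected in 42.6% of these cells in the IRF4 arm, against in 18.2% in the control arm, and all 9 were found together in 0 cells of the IRF4 arm and 1 cell of the control arm.

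**Figure D4:**
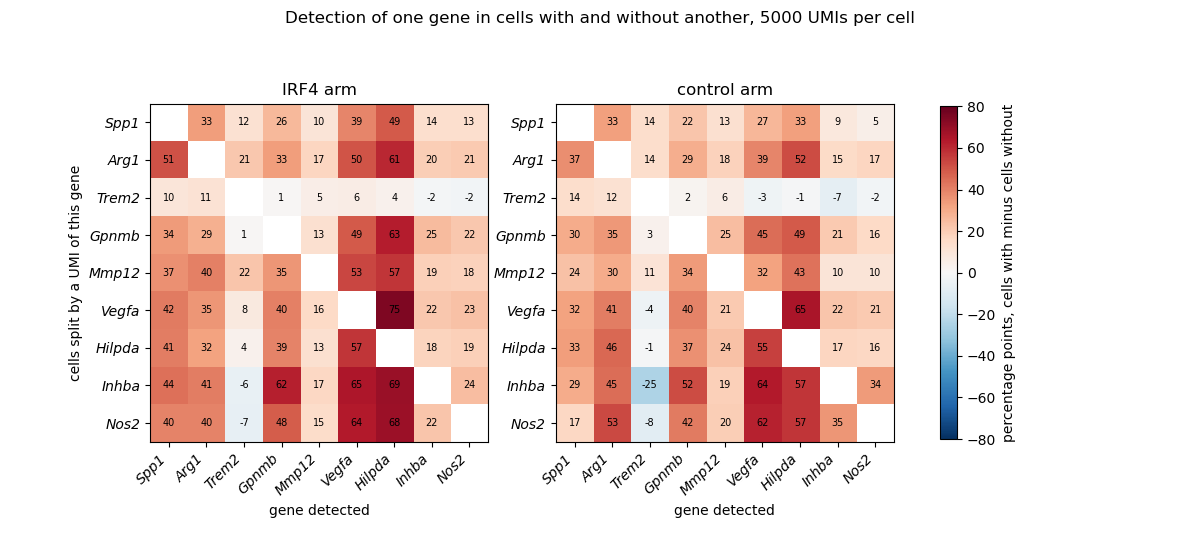
Difference in percentage points between the share of cells with a UMI of the gene on the x axis among cells with, and among cells without, a UMI of the gene on the y axis, at 5000 UMIs per cell, IRF4 arm on the left and control arm on the right. Rows of Hilpda, Inhba and Nos2 are red throughout except in the Trem2 column, where cells with Inhba or Nos2 had the lower share. For Trem2 the counting intervals of cells with and without Nos2 overlapped in both arms, and those with and without Inhba in the IRF4 arm.

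Across 23 units (each 1 type in 1 endogenous library, with at least 50 cells), 5316 other genes were ranked by their Pearson correlation with each member on log2(CPM + 1). The units share libraries and free RNA, so the values only describe likeness. Trem2 was most like Lpl (0.965), Adap2 (0.959) and Slc11a1 (0.956). Hilpda was most like Rhov (0.959), Lhfpl2 (0.941) and Pdpn (0.936), and Spp1 like Rhov (0.887), Pdpn (0.883) and Atp6v1c1 (0.880). Arg1 was nearest to Lhfpl2 (0.922), Egln3 (0.883) and Bnip3 (0.873), and Gpnmb to Lhfpl2 (0.930), Mgarp (0.918) and Bnip3 (0.910). Egln3, an oxygen-sensing HIF hydroxylase, and Bnip3, a mitophagy receptor, are both HIF targets. Mmp12 was nearest to F7 (0.921), Pdpn (0.907) and the glucose transporter gene Slc2a1 (0.901), and Nos2 to Gna13 (0.931), Ero1l (0.898) and Slc2a1 (0.889). Vegfa was nearest to Ninj1 (0.891), Lhfpl2 (0.875) and Selenbp1 (0.867), and Inhba to Bsg (0.869), Nufip1 (0.852) and Gna13 (0.823).

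Genes of related pathways were counted from lists that hold none of the 9. For all measured genes the shares higher and lower in the IRF4 arm were 5.79% and 7.08% in C1q macrophages. They were 4.59% and 5.38% in Ly6c2 monocytes and 11.7% and 6.99% in other myeloid cells. Nonclassical monocytes had 3.32% and 5.32%, and cDC2 had 6.00% and 9.21%. In cluster 2 they were 7.16% and 3.46%, and in cluster 7 they were 4.13% and 4.56%. Of the hypoxia list, 3 of 30 measured genes were higher and 0 lower in C1q macrophages of the IRF4 arm, against 0 higher and 19 lower of 29 in Ly6c2 monocytes and 0 higher and 12 lower of 31 in other myeloid cells. The hexokinase gene Hk2 stood at 106 CPM in the IRF4 arm and 62.8 CPM in the control arm in C1q macrophages. Fam162a, a hypoxia-induced mitochondrial gene, stood at 64.7 CPM in the IRF4 arm and 143 CPM in the control arm in Ly6c2 monocytes. Within cluster 2, 1 hypoxia gene was higher and 1 lower of 31, and in cluster 7 none of 29 passed the mark in either direction. Beside this list, Hilpda and Vegfa had ratios of 1.13 and 2.15 in C1q macrophages and 0.631 and 0.870 in Ly6c2 monocytes.

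Of the list of TREM2 and lipid genes, 2 were higher and 4 lower of 20 in C1q macrophages, 0 and 8 in Ly6c2 monocytes and 0 and 13 in other myeloid cells. Lpl, the lipoprotein lipase gene, stood at 416 CPM in the IRF4 arm and 789 CPM in the control arm in C1q macrophages. Of the matrix list, 3 were higher and 3 lower of 15 in C1q macrophages and 0 and 11 of 17 in other myeloid cells. Fn1, the fibronectin gene, stood at 346 CPM in the IRF4 arm and 646 CPM in the control arm in C1q macrophages. Of the arginine and polyamine list, 3 were higher and 1 lower of 12 in C1q macrophages and 0 and 1 of 12 in other myeloid cells. Ass1, which rebuilds arginine from citrulline, stood at 139 CPM in the IRF4 arm and 66.0 CPM in the control arm in C1q macrophages. Of the osteopontin receptors 0 were higher and 1 lower of 7 there, and of the activin pathway 1 and 0 of 4. The angiogenic list had 1 higher and 0 lower of 4. That gene, the VEGF receptor gene Flt1, stood at 28.2 CPM in the IRF4 arm and 8.53 CPM in the control arm. Counts of 0 or 1 in such short lists are coarse beside the shares of all measured genes and are not read as a result. Of the alternative activation list, 3 were higher and 7 lower of 12 in C1q macrophages, with the lectin gene Mgl2 at 13.9 CPM in the IRF4 arm and 117 CPM in the control arm.

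Lists of interferon-gamma and handling stress moved with the arms in the same cells. Of 15 measured interferon-gamma genes, 13 were higher and 0 lower in C1q macrophages, 8 and 1 in Ly6c2 monocytes, 12 and 0 in other myeloid cells, 8 and 0 in cDC2, but 1 and 2 in nonclassical monocytes. Cxcl10, the interferon-induced chemokine, stood at 997 CPM in the IRF4 arm and 235 CPM in the control arm in C1q macrophages. Of 17 listed NF-kB targets, 7 were higher and 1 lower of 12 measured in C1q macrophages. Irg1, which makes itaconate, stood at 81.8 CPM in the IRF4 arm and 15.4 CPM in the control arm, and the chemokine gene Cxcl3 at 9.82 and 91.7 CPM. Of 11 handling stress genes, which respond to tissue dissociation, 6 to 9 were higher and 0 lower in each of the 5 types, with Fos at 683 CPM in the IRF4 arm and 288 CPM in the control arm in C1q macrophages. Of 9 proliferation genes, 0 were higher and 4 lower in C1q macrophages, but 9 higher and 0 lower in other myeloid cells. The part of these lists in the values of the 9 genes was not tested.

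**Figure D5:**
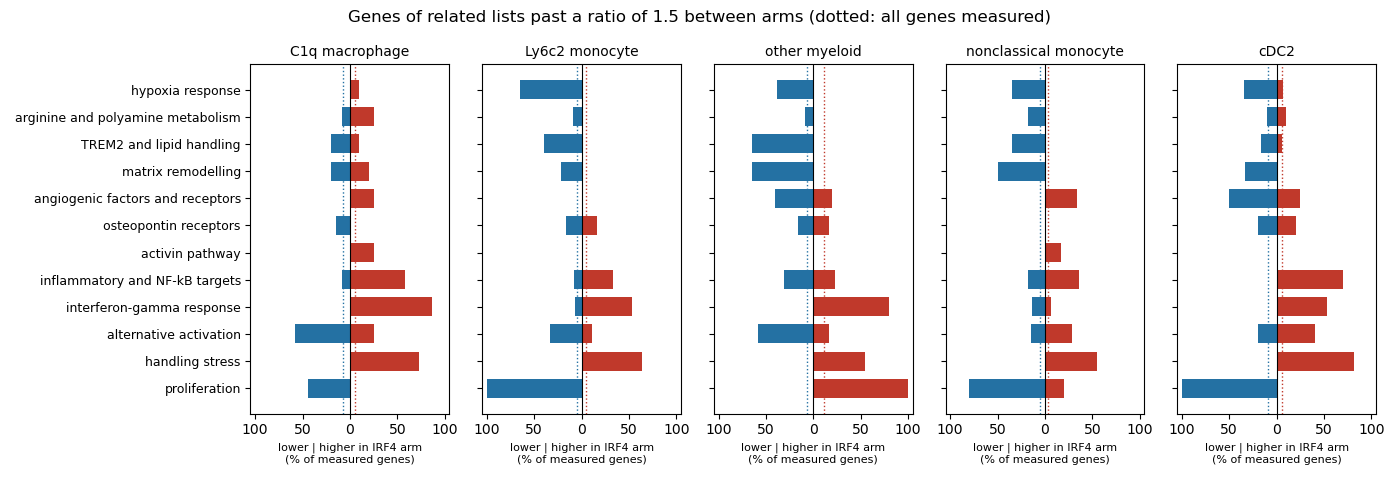
Percentage of the measured genes of each list that were higher (red, right) or lower (blue, left) past a ratio of 1.5 in the IRF4 arm over the control arm, in 5 gated types; dotted lines give the same for all genes measured. The hypoxia bars point left in Ly6c2 monocytes (19 of 29) but not in C1q macrophages, where 0 hypoxia genes were lower and 13 of 15 interferon-gamma genes were higher; bars of lists with few measured genes, such as proliferation in Ly6c2 monocytes with 1, are coarse.

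RNA of other cell types was read beside these values. The full melanoma list of 7 genes, Mitf included, summed to 163.5 CPM in the IRF4 arm and 68.8 CPM in the control arm in C1q macrophages, to 21.2 and 37.3 CPM in Ly6c2 monocytes and to 39.1 and 286 CPM in other myeloid cells. Of the 5 fibroblast genes, none had a UMI in these 3 types of the IRF4 arm and 1 had a single UMI in C1q macrophages of the control arm. The 5 erythroid genes summed to 1.58 CPM in the IRF4 arm and 1032 CPM in the control arm in C1q macrophages. In the same order of arms they summed to 1.70 and 56.7 CPM in Ly6c2 monocytes and to 0.766 and 4088 CPM in other myeloid cells. B cells, the type read here for free RNA, held 4.07 CPM of them in the IRF4 arm and 27670 CPM in the control arm. In C1q macrophages the 5 B cell genes summed to 60.2 CPM in the IRF4 arm and 76.5 CPM in the control arm. The 7 T cell genes summed there to 28.5 and 12.2 CPM. Cells with both lymphoid and myeloid markers, 749 in the IRF4 arm, against 840 in the control arm, were left out, and they held 22.2% and 28.8% of all Spp1 UMIs of their libraries and 33.7% and 28.9% of those of Mmp12. With these cells kept, 9 of the 9 genes were lower past 1.5-fold in other myeloid cells of the IRF4 arm, where 9.70% of all measured genes were, against 4 and 6.99% without them. Keeping them took this type from 214 to 653 cells in the IRF4 arm and from 409 to 751 in the control arm. The added cells were thus an unequal part of the type in the 2 arms, and what this did to the 9 ratios was not tested. The part of doublets and free RNA in these values was not tested.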

How the data were processed

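Single-cell RNA came from 4 droplet libraries (10x Genomics 3' chemistry, version 3, per the labels' protocols) of cells sorted from mouse tumours. The protocols also speak of a single-nucleus suspension, and barcodes were treated as cells. What the authors deposited is a matrix of raw UMI counts for every gene and barcode. The submitters' processing notes list Cell Ranger 3.0.2, STAR 2.6 and the build mm10; for the annotation behind the counts, nothing is given in the sources used here. The counts cover 28692 genes, and 58 symbols belong to more than 1 identifier. The 4 libraries held 715 (transferred, IRF4 arm), 3640 (transferred, control arm), 6981 (endogenous, IRF4 arm) and 6375 (endogenous, control arm) barcodes, with 16664323, 94686409, 81843816 and 84211837 UMIs.

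Cells were kept with at least 1000 UMIs, 500 genes and at most 10% mitochondrial UMIs. A cell with at least 3 markers of a single lymphoid type (T, NK or B cell) was set aside. A rarer myeloid type needed at least 3 of its own markers, with no pan-myeloid requirement. The remaining myeloid cells needed at least 5 of 8 pan-myeloid markers. Of these, C1q macrophages or Ly6c2 monocytes carried at least 4 of the 6 markers of their type. These limits were set after the marker counts had been seen. No doublet caller was run in the main setting; cells with lymphoid and myeloid markers were left out, and the 6% of cells with the highest Scrublet scores were left out as an alternative.

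UMIs were summed per type and library and scaled to CPM, with a pseudocount of 1 CPM for log2 ratios. Genes reaching 10 CPM in either arm counted as measured, and past a ratio of 1.5 as higher or lower. Types were compared between arms where both held 100 cells or more. Intervals at 95% were exact Poisson for levels, exact conditional binomial for ratios and Clopper-Pearson for shares, and a count of 0 was read against a floor of 3 counts. With 1 library per group no test was possible, and no p-value was made. Clusters came from scanpy 1.11.5 (2000 variable genes without the 9, 30 components, 15 neighbours, Leiden resolution 1). A cluster took its most common gated type and kept its cells with both lymphoid and myeloid markers. Among gated cells, 45.3% of cluster 2 were other myeloid, 51.6% of cluster 7 C1q macrophages and 49.9% of cluster 11 cDC2. Ly6c2 monocytes made up 61.9% of cluster 4 and 75% of cluster 5. Other tools were Python 3.11.15, numpy 2.4.6, pandas 2.3.3, scipy 1.17.1, anndata 0.12.19, scikit-learn 1.9.0, igraph 0.11.9 and matplotlib 3.10.9. The fold rule and the ratio intervals were run on simulated Poisson counts. These hold no uneven spread over cells and no variation between libraries, so the run cannot speak to either. Symbols were matched to GENCODE vM21 for coordinates and to RefSeq for promoters.

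The 9 genes, the lists and the markers were chosen with earlier results of these data known. Beside the 9 genes, the text names the 2 highest and 2 lowest measured genes of a list, or some of them, the 3 genes most correlated with each of the 9, and marker genes.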

Additional observations from a re-analysis of the deposited data

Results flagged for a closer look

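Gpnmb and Nos2 pointed in opposite directions between the arms in different myeloid types, and these differences were not tested. Between the IRF4 and control arms the Gpnmb ratio was 1.53 in C1q macrophages, against 0.328 in nonclassical monocytes and 0.452 in cDC2. In nonclassical monocytes Gpnmb rested on 7 UMIs of the IRF4 arm and 47 UMIs of the control arm, and in cDC2 1 cell held 97.4% of the 77 UMIs of the control arm. The Nos2 ratio was 2.27 in C1q macrophages, from 91 UMIs of the IRF4 arm and 164 UMIs of the control arm, against 0.50 in Ly6c2 monocytes, from 109 and 253 UMIs. These directions turned under other settings: with types taken from clusters the log2 ratio of Nos2 in Ly6c2 monocytes was 1.04 and that of Gpnmb in nonclassical monocytes 0.49, both on levels under 10 CPM, and Gpnmb in cDC2 changed sign in 4 of 17 settings.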

How the results depend on the processing

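No paired analysis was possible because each group is 1 library and the labels carry no replicate number, and for the same reason no replicate could be left out. Over the 5 myeloid types, 4 pairs of gene and type were higher in the IRF4 arm and 21 lower. By type, 3.32% to 11.7% of all measured genes were higher and 5.32% to 9.21% lower. The 4 higher pairs became 2 with types taken from Leiden clusters, with the mean of single-cell CPM, with a pseudocount of 10 CPM, and with cells of lymphoid and myeloid markers kept. The shares of all genes under these settings are not given here. List genes lower in the IRF4 arm numbered 176 and became 98 with Leiden clusters. With lymphoid and myeloid cells kept, 5 of 9 genes had their highest type in the IRF4 library where it was before. Without thinning, 5 pairs in place of 9 had the higher share of cells in the IRF4 arm. Of the log2 ratios past the mark, those that changed sign were Nos2 in Ly6c2 monocytes (1.04 with Leiden clusters), Gpnmb in nonclassical monocytes (0.49 with Leiden clusters), and Mmp12 in nonclassical monocytes (0.23 without the highest Scrublet scores and 0.40 less the B cell CPM). Gpnmb in cDC2 gave 0.00465 with Leiden clusters, 2.62 without the highest Scrublet scores, 2.90 without cells carrying a lymphoid marker UMI and 1.32 without its richest cell. The cause was not tested. The values with Leiden clusters rest on levels under 10 CPM in both arms. Ratios short of the mark also changed sign, for example Hilpda in C1q macrophages (0.18, with a lowest value of -0.17) and Gpnmb in other myeloid cells (-0.19, with a highest value of 0.24). Subtracting the B cell CPM of each library moved the median of all genes to between -0.19 and -0.12. Keeping lymphoid and myeloid cells, leaving out cells with melanoma markers, subtracting B cell CPM, leaving out shared barcodes and leaving out the richest cell were chosen after seeing the data. Of the other results, 725 stayed and 202 moved. The 202 include Nos2 in cDC2, which had 0 UMIs in both arms and so no interval. It was counted as moved even where its log2 ratio stayed at 0. Inhba and Nos2 were the genes not measured in nonclassical monocytes and cDC2, where both were under 10 CPM in each arm.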
